A study of Beta vulgaris with 6 samples.

Results

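Among the 53752 probes of a custom sugar beet expression array, 44 carry names that start with T, from T1 to T44, and these are described here across 6 genotypes that differ in bolting. The probes were taken by name from the scanner files, and no measured value entered the choice. Their number is that which the study gives for its candidate gene probes, and it gives fewer candidate genes than probes. No file used here pairs a T probe with a gene, and the identifier that each file gives for a T probe is the probe name itself in 44 of 44 cases. The T probes are therefore called by their numbers, without a gene name, a position in the genome or a sequence. The other probes were 29094 named with P and 24555 named with O, and a small remainder with other names.

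All 6 genotypes were biennial sugar beet (Beta vulgaris altissima), raised at 22 °C with a 16 h photoperiod and then held at 4 °C for 9 weeks, a treatment that mimics winter. Shoot apices were taken directly after the cold and trimmed to the shoot apical meristem, the group of dividing cells from which leaves, stem and flowers are formed. Genotypes 1, 4 and 7 were labelled bolting resistant (a low capacity to bolt), and genotypes 2, 3 and 5 bolting sensitive (a high capacity to bolt). Each genotype was represented by 1 meristem, so the 3 genotypes of a group are its replicates and a genotype cannot be told apart from its single plant. Genotypes 3 and 7 were each hybridized to 2 arrays as technical replicates, and the other genotypes to 1 array, which gives 8 arrays. No sample was left without cold, so the values describe differences between genotypes after cold and not a response to it. The labelled tissue could not be checked against meristem markers, because the probes were not named.

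Bolting is the elongation of the stem that precedes flowering, and in biennial beet it follows a long exposure to cold, which is called vernalization. In Arabidopsis, cold silences FLC, a MADS-box repressor of flowering, and this releases FT, the mobile signal made in leaves that switches the meristem to flowering. In beet, the pair of FT homologues have opposite roles: BvFT1 represses flowering and BvFT2 promotes it, and the regulator BvBTC1 acts upstream of both. The study's methods name FLC, FT and CONSTANS-LIKE genes of beet among those added to the array as known floral transition genes.

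Expression was read as Cy3 intensity, and values are given as log2 of the intensity minus the 75th percentile of the same array, so that 0 is the brightness below which 75% of the non-control spots lay. That percentile was an intensity of 288.4 to 422.6 on the 8 arrays. Scaled in the same way, the lowest signal flagged as well above background lay between -4.39 and -3.81, and 42.6% to 45.0% of spots passed that flag. That lowest flagged signal of an array is called its limit here. All arrays were on 1 slide and read in 1 scan, and the array numbers of the file headers put genotypes 1, 2 and 3 in row 1 of the slide and genotypes 4, 5 and 7 in row 2. Precision is limited by the number of genotypes. Over the retained T probes, duplicate arrays had an SD of 0.09 (genotype 3) and 0.10 (genotype 7), and the greatest difference between duplicates was 0.41 in both.

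Most T probes gave signal in the vernalized meristem. Of the 44 probes, 24 (54.5%) gave a signal flagged as well above background on each of the 8 arrays, 12 (27.3%) on none and 8 (18.2%) on some. For the P probes, the shares were 68.1%, 18.7% and 13.2%, respectively. Each array had between 26 and 29 T probes well above background, with the fewest for genotype 4 and the most for genotype 2 and for 1 array of genotype 3. The comparison of groups used probes that passed every quality flag throughout the arrays of 1 or both groups. By this rule, 26 T probes were retained (59.1%), against 41.5% of all probes, 72.4% of P probes and 4.98% of O probes. The 18 T probes not retained were T2, T7, T8, T11, T12, T14 to T18, T20 to T23, T27 and T33 to T35.

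The T probes were dimmer than the P probes as a class. Over all 44 T probes, the median level in a genotype ran from -2.54 (genotype 7) to -1.77 (genotype 2), and that of the P probes from -0.48 to -0.44. The median of the T probes lay below that of the P probes in each of the 6 genotypes, with a mean difference of -1.56, or -1.03 after normexp background correction. Among retained probes, the medians were -0.98 to 0.54 for T and 0.90 to 0.96 for P. These are class medians of brightness, and they do not set the abundance of one transcript against another.

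No T probe passed the test between the bolting classes. In limma's moderated test of resistant against sensitive genotypes, 0 of 26 retained T probes had an unadjusted p under 0.05, where 3.39% of all retained probes did. With the added requirement of a 2-fold difference the count was also 0, against 1.74% of all retained probes. After Benjamini–Hochberg adjustment over all 22314 retained probes, the count with a 2-fold difference was 0, against 0.0807% of all, and it was 0 T probes without the fold as well. At shares this small, a count of 0 among 26 probes is not unusual, so it does not set the T probes apart. The smallest unadjusted limma p among T probes was 0.0738, for T24, and all adjusted p-values were 1.00. The methods' t-test, in its forms with equal and with unequal variances, also gave 0 T probes at an unadjusted p under 0.05. With 3 genotypes against 3, an exact two-sided permutation test of one probe cannot give a p below 0.1. A p that misses the threshold in so small a design does not show that the levels were alike. The study itself lists 3 differentially expressed genes for its 26 filtered candidate gene probes, by its own test and a 2-fold difference. If those are the T probes, which the numbers of probes do not settle, the 0 found here differs from that count. Limma on the authors' log2 table, or on first arrays only, also gave 0 T probes at an unadjusted p under 0.05, with no share over all probes counted. The reason for the difference was not tested.

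The sizes of the differences were modest for most T probes. The resistant mean was below the sensitive mean for 21 of 26 retained T probes (80.8%), and 48.7% of all retained probes had this direction. The median difference was -0.20 over the T probes and 0.01 over all retained probes. Scaling to the median of each array instead of its 75th percentile moved the median of all retained probes to 0.13 and that of the T probes to -0.08, and 65.4% of the T probes and 30.9% of all probes were then lower in resistant genotypes. Without genotype 7 the median over the T probes was -0.06, with 16 of 26 probes lower, without genotype 4 it was -0.09, and without genotype 3 it was -0.11. The T probes do not count as independent, since several follow each other closely across genotypes. Genotype 7 had the lowest value of the 6 for 10 of the 26 probes, and genotype 5 the highest for 7 and the lowest for 0. The same was not counted over the other retained probes, so these counts cannot be read as a trait of the T probes. Group means differed by more than 2-fold for 1 T probe, T28, against 7.02% of all retained probes. The genotypes of the groups did not overlap for 1 T probe, T24, against 7.30% of all retained probes. With 26 probes, counts of 1 cannot be told apart from these shares. T24 and T28 were well above background in the 3 sensitive genotypes but not in resistant genotype 1, so they were retained through the sensitive group alone, where they were higher.

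T24 was dim throughout. It read -4.26, -3.65 and -3.73 in resistant genotypes 1, 4 and 7, and -3.49, -3.38 and -3.34 in sensitive genotypes 2, 3 and 5. The least bright sensitive genotype lay 0.16 above the brightest resistant one. The difference between group means was -0.48 (standard error 0.22, adjusted p of limma = 1.00), and the duplicate arrays of T24 differed by 0.41 in genotype 3 and 0.35 in genotype 7. In genotype 1 it was not well above background, and genotype 5 was 1.87-fold brighter than the limit there. The gap between the groups was thus smaller than the difference between 2 arrays of 1 genotype. With the row of the slide as a block, chosen after the values were seen, the difference was -0.59 with an unadjusted limma p of 0.0341 (adjusted p = 1.00). That fit takes in the recorded signal of genotype 1, below the limit, as the only resistant genotype of its row, so its p is not support for a difference. Without genotype 1 the difference was -0.29, and after normexp background correction -0.08.

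T28 had the widest recorded range of the retained T probes. It read -4.83, 0.73 and -2.11 in resistant genotypes 1, 4 and 7, and -1.73, 1.31 and -0.17 in sensitive genotypes 2, 3 and 5. Genotype 3 was brightest and genotype 4, of the opposite class, came next. In genotype 1 the signal was not well above background, and genotype 3 was 46.9-fold brighter than the limit there. Over the other 5 genotypes its range was 3.42, close to the 3.45 of T31 over all 6. The resistant mean was -2.07 ± 2.78 and the sensitive mean -0.20 ± 1.52 (SD, n = 3), a difference of -1.87 (standard error 1.51, adjusted p of limma = 1.00). The resistant mean includes the recorded signal of genotype 1 below the limit. After normexp background correction the difference was -1.08, and genotype 3 exceeded the recorded signal of genotype 1 by 13.9-fold. Without genotype 1 the difference was -0.49, and without genotype 4 it was -3.27 with an unadjusted limma p of 0.0441 (adjusted p = 0.999).

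T31 and T32 ordered the genotypes as T28 did, although the lowest of them were close to each other. T31 read -0.98, 1.73 and -0.97 in genotypes 1, 4 and 7 and -0.92, 2.46 and 0.04 in genotypes 2, 3 and 5. T32 read -1.12, 0.80 and -1.06 in the resistant genotypes and -0.77, 1.31 and -0.10 in the sensitive genotypes. In both, genotypes 3 and 4 stood above the rest and genotype 5 came between. The mean of genotypes 3 and 4 was 7.00-fold that of the other 4 genotypes for T31 and 3.53-fold for T32. Genotypes 1, 2 and 7 lay within 0.07 of each other in T31, less than its duplicate arrays differed (0.26 in genotype 3 and 0.17 in genotype 7). The profiles of T31 and T32 had a Pearson r of 0.991, and T28 had an r of 0.84 with T31 and 0.89 with T32, over 6 genotypes. The rank order of the 6 genotypes was the same in T28, T31 and T32 (Spearman's rho of 1 for T28 with each). One resistant and one sensitive genotype were high together, so this pattern cut across the bolting classes.

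T9 and T10 divided the genotypes in another way. T9 read 4.15, 2.37 and 2.41 in genotypes 1, 4 and 7 and 2.61, 4.58 and 2.83 in genotypes 2, 3 and 5. T10 read 2.88, 1.07 and 1.10 in the resistant genotypes and 1.26, 3.25 and 1.41 in the sensitive genotypes. Resistant genotype 1 and sensitive genotype 3 were high in both probes. Their mean was 3.50-fold that of the other 4 genotypes for T9 and 3.62-fold for T10, and the lower of the pair exceeded the next genotype by 2.50-fold and 2.78-fold, respectively. The duplicate arrays of genotypes 3 and 7 differed by 0.02 to 0.08 for these probes. The r between T9 and T10 was 0.999, and the 2 probes kept the same distance in every genotype, with an SD of the difference of 0.05. Genotypes 4 and 7 could not be ordered, as they differed by 0.04 or less in both.

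T43 and T44 were highest in genotype 2 and lowest in genotype 7. T43 read -2.05, -2.59 and -3.61 in genotypes 1, 4 and 7 and -1.67, -3.07 and -2.84 in genotypes 2, 3 and 5. T44 read -1.17, -0.86 and -2.79 in the resistant genotypes and 0.22, -2.05 and -1.21 in the sensitive genotypes. Genotype 2 exceeded genotype 7 by 3.85-fold in T43 and by 8.05-fold in T44, or by 1.80-fold and 3.96-fold after normexp background correction. T43 was spotted 11 times on each array, and the SD over its spots was 0.11 to 0.31. The next genotype after 2 was genotype 1 for T43 and genotype 4 for T44, and the r between the profiles was 0.921.

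T37 and T38 were highest in genotype 1 and lowest in genotype 7, both resistant. T37 read 1.25, 0.27 and -0.44 in genotypes 1, 4 and 7 and 0.41, 0.51 and 0.41 in genotypes 2, 3 and 5. T38 read 1.22, 0.23 and -0.43 in the resistant genotypes and 0.56, 0.57 and 0.47 in the sensitive genotypes. Genotype 1 exceeded genotype 7 by 3.23-fold and 3.15-fold, respectively. The 3 sensitive genotypes lay close together, with an SD of 0.06 for T37 and 0.05 for T38, against 0.85 and 0.83 in the resistant group. T37, with 11 spots, had an SD over spots of 0.04 to 0.10 on an array, and its r with T38 was 0.991.

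T1 had the largest positive difference between the classes among the retained T probes. It read -1.06, -2.04 and -1.97 in resistant genotypes 1, 4 and 7 and -2.64, -1.78 and -2.04 in sensitive genotypes 2, 3 and 5. Resistant genotype 1 was highest and sensitive genotype 2 lowest, 2.99-fold apart (1.90-fold after normexp background correction), and the other four genotypes lay between -2.04 and -1.78. The difference between group means was 0.47 (standard error 0.36, adjusted p of limma = 1.00). Sensitive genotype 3 lay above resistant genotypes 4 and 7, so the groups overlapped, and genotypes 4 and 5 were at the same level.

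Across all 26 retained T probes, the range over the 6 genotypes had a median of 0.86 on the log2 scale, and that of the P probes 0.92. The range exceeded 2-fold for 12 T probes (46.2%), beside 45.7% of all retained probes and 45.4% of the P probes. It exceeded 4-fold for 6 T probes (23.1%), beside 17.2% of all retained probes and 17.3% of the P probes. The 6 were T9, T10, T28, T31, T32 and T44. The smallest range was that of T36, 0.38, with levels from -3.16 to -2.78. Genotypes of the same class differed by more than 2-fold in a median of 5 T probes (3 to 7 over 6 pairs), and genotypes of opposite class in a median of 4 (1 to 7 over 9 pairs). As median shares of the retained probes, these were 19.2% and 15.4%, beside 16.0% and 15.2% for the P probes. Between resistant genotype 4 and sensitive genotype 5, 1 T probe (3.85%) differed by that much, beside 16.9% of the P probes.

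The other 15 retained T probes fell outside the naming rule. That rule took the 10 largest ranges, and T24 because its groups did not overlap and it was detected on some arrays only. T13, spotted 11 times, was bright and even, at 3.44, 3.48 and 3.36 in genotypes 1, 4 and 7 and 3.26, 3.33 and 3.72 in genotypes 2, 3 and 5. T41 and T42 were highest in resistant genotype 4, at 1.84 and 2.62, and differed between groups by 0.24 and 0.18. T39 and T40 were highest in sensitive genotype 5, at 2.16 and 2.00. T5 ran from -1.46 in genotype 7 to -0.43 in genotype 5, and T6 from -2.29 to -1.57 in the same genotypes. T19 was highest in genotype 3 (-0.89) and lowest in genotype 7 (-2.11). None of these differences between groups passed a threshold, and their unadjusted limma p was 0.219 or more.

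T probes of adjacent numbers had like profiles. The 44 probes form 22 pairs of an odd number and the next even one, a grouping made after the values were seen. Both probes were retained in 10 pairs, one in 6 and none in 6. Over the 6 genotypes, the r within the 10 pairs had a median of 0.95 and exceeded 0.9 in 8 of them. The other 315 pairs of retained T probes had a median r of 0.06, and 3 of them exceeded 0.9 (T29 with T25, T26 and T38). Paired by number in the same way, 8455 pairs of retained P probes had a median r of 0.04, and 1.85% exceeded 0.9. The exceptions among the T pairs were T29 and T30, with an r of 0.388, and T39 and T40, with 0.848, and all 4 of these probes had ranges of 0.48 or less. The probes of the whole array with profiles most like the 3 T probes of smallest unadjusted p were, for T24, P16004 (r = 0.994), for T5, P20732 (r = 0.99), and for T41, P14607 (r = 0.985), each out of 22313 other retained probes. All probes of an array share its RNA and its scaling, and 6 points give little precision to an r.

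Position on the slide moved with some of these profiles. The genotypes of the 2 rows of the slide did not overlap for 8 of the 26 retained T probes (30.8%), beside 15.0% of all retained probes. The 8 include pairs with like profiles, T3 with T4 (r = 0.949), T25 with T26 (r = 0.984) and T37 with T38 (r = 0.991). They are therefore not separate cases, and the share counts some profiles more than once. T25, T26, T29, T37 and T38 were recorded higher in genotypes 1, 2 and 3, and T3, T4 and T39 in genotypes 4, 5 and 7. The gap between the rows exceeded the larger difference between duplicate arrays of the same probe for T3, T25, T26 and T38. For T4, T29, T37 and T39 it did not, and for T37 it was 0.004, so the rows of these 4 probes cannot be called apart. T26, spotted 11 times, read 1.23, 1.13 and 1.09 in genotypes 1, 2 and 3 and 0.60, 0.74 and 0.50 in genotypes 4, 5 and 7. T3 read -1.61, -1.43 and -1.33 against -1.15, -1.16 and -0.81. Slide row and genotype cannot be told apart for these probes. Each row held genotypes of both classes. Within row 2, resistant minus sensitive was -0.35 for T24 and -0.51 for T28. Within row 1, the only resistant genotype was genotype 1, in which neither probe was well above background, so no difference is given.

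Of the 18 T probes that were not retained, 6 were well above background in some genotypes. T12 was well above background in genotype 2 alone, at -2.39, and recorded signals of -6.58 to -5.70 in the other genotypes, at least 2.71-fold to 3.95-fold below genotype 2. T11 was also highest in genotype 2, at -1.42, followed by genotype 1 at -2.67 and genotype 3 at -3.04. It was not well above background in genotypes 4, 5 and 7, from which genotype 2 differed by at least 5.24-fold to 7.72-fold. The bounds set the bright genotype against the lowest signal well above background on the array of the dim one, or against the dim signal itself where that was higher. A signal without the flag can lie above that lowest one, as T11 did in genotype 5 (-3.81 against -4.08). The bounds are therefore approximate. T35 was well above background in genotype 2 alone as well, but at -3.70 it was 1.09-fold to 1.59-fold brighter than the limits of the others.

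T7 and T8 were brightest in genotype 1, at -3.19 and -2.68, and not well above background in genotypes 2 and 4. Genotype 1 exceeded the limits in those genotypes by 1.58-fold to 1.61-fold for T7 and by 2.24-fold to 2.29-fold for T8. For each of them, 1 of the 2 arrays of genotype 3 passed the flag, and the duplicate arrays of genotype 3 differed by 0.78 and 0.74, so neither can be called present or absent there. T22 passed on the array of genotype 1 and on 1 array of genotype 3. The 12 T probes that passed on no array (T2, T14 to T18, T20, T21, T23, T27, T33 and T34) have only an upper limit in all 6 genotypes, and a signal under that limit does not show that the transcript was absent.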

How the data were processed

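Total RNA from the shoot apical meristem of 6 sugar beet genotypes was measured on 1-colour custom Agilent arrays of long-oligonucleotide probes. The authors deposited scanner files from Feature Extraction 10.7.3.1, in which each spot has a background-subtracted intensity and quality flags, not normalized between arrays. A further deposited table holds log2 values that the authors had scaled by array (75th percentile) and centred by probe (median), in which 99.6% of the 264 values of T probes lay within 0.05 of those computed here from first arrays. That table served as an alternative.

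For each array, the log2 of the 75th percentile over 54252 non-control spots was subtracted. Spots of a probe were averaged (11 for T3, T13, T26, T37 and T43, and 1 for the other T probes), then arrays of a genotype. Retention used the flags for outliers, saturation, significance and background. A probe with several spots passed on an array where 1 of them did. Groups were those of the labels, and were compared over all retained probes with limma 3.58.1 (lmFit and eBayes) in R 4.3.3, with the data.table package (1.17.8), as resistant minus sensitive. The scripts were tested on simulated data. Where no array of a genotype was well above background, folds are approximate lower limits, set against the lowest flagged signal of its arrays or the recorded signal where higher. Correlations are over 6 genotypes, with no test.

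The T probes with values in full were the retained ones past an unadjusted p of 0.05 or a 2-fold difference, without overlap between groups, with the 10 largest ranges, or well above background on some arrays only. Probes outside that rule, and the grouping by number and by row of the slide, were chosen after the values were seen. The members, lists and tests were chosen with earlier results of these data known. T probe names matched 0 entries of the RefSeq genes and 0 of the supplementary tables, so gene names and sequences are not given here. Alternatives were other scalings, background corrections, filters, arrays and tests, and each genotype left out.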

Additional observations from a re-analysis of the deposited data

How the results depend on the processing

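After Benjamini–Hochberg adjustment, 0 retained T probes differed between the groups under each of the 20 alternatives tried. The shares of all retained probes past these thresholds were not counted under the alternatives. At an unadjusted p under 0.05 with a 2-fold difference, the count was 0 to 1 when a genotype was left out, the 1 being T28 without genotype 4, and 0 under the others. The row of the slide as a block, an alternative chosen after seeing the data, put T24 past the unadjusted p alone. That fit rests in part on the signal of T24 in genotype 1, which was below the limit. The number of retained T probes was 24 with flags passed in both groups, 27 with a background limit of 2.6 SD, and 26 to 28 when a genotype was left out. The median difference between T and P probes moved to -1.03 with normexp (offset of 50) and to -1.17 over retained probes only, and was -1.61 to -1.45 when a genotype was left out. The median range over genotypes was 0.64 with normexp, under which those of T1, T28, T43 and T44 were 0.92, 3.80, 0.85 and 1.99, and 0.69 to 0.98 when a genotype was left out. The median r of numbered pairs was 0.93 to 0.98 when a genotype was left out. The causes of these moves were not tested. For T24 and T28, the difference ran from -0.59 to -0.08 and from -3.27 to -0.49 over the 19 alternatives that gave a value. The sign did not change, but the alternatives reuse the same arrays. Both probes were also retained through the sensitive group alone, where they were higher, so the constant sign is not support for a difference.

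No paired analysis was possible because the labels give each genotype the same replicate number, which names no pair across groups. The slide as a block was not run, as all arrays share 1 slide. Dim probes are limited by signal over background, since T24 and the 12 T probes on no array lie near or below the limit of -4.39 to -3.81.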

Other observations

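Some P and O probes followed the T pairs across genotypes, as a description with no test, out of 22288 retained probes that are not T probes. These T probes were chosen after their values were seen. The profile most like that of T9 was P16214 (r = 0.995), and 4 probes had an r over 0.99 with T9. For T31, O5600, P13369 and O12188 each had an r of 0.995, and 10 probes had an r over 0.99. O5600 and P13369 had ranges over genotypes of 3.50 and 3.74, near that of T31. P11142 was most like T37 (r = 0.998, range 1.76), and P19940 was most like T43 (r = 0.994) but with a range of 0.38. With 6 genotypes and this many probes, a high r arises for many profiles, so the matches name probes only.

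Among probes that were dim in some genotypes, T11 and T43, which were both highest in genotype 2, had an r of 0.88 and a Spearman's rho of 0.77 over the recorded signals. With T44, also highest in genotype 2, T11 had a lower r of 0.78 and a Spearman's rho of 0.6. T7 and T8 had an r of 0.85, with genotype 1 highest in both. Signals that were not well above background enter these values.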
